A study of Mus musculus with 236 samples.

Results

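The 10 genes Ctcf, Rad21, Smc1a, Smc3, Stag1, Stag2, Nipbl, Wapl, Pds5a and Pds5b encode the cohesin complex, its regulators and the boundary factor CTCF. They were taken by name from the deposited table of unique molecular identifiers (UMIs, tags that mark single RNA molecules), and all 10 were found among its 39300 gene rows. The cells came from 1 line of mouse embryonic stem cells (mESC), which is female and was made from blastocysts of a cross in which C57BL/6J (B6) gave the maternal and CAST/EiJ (CAST) the paternal chromosomes. They were grown in serum medium with LIF and the 2i inhibitors of MEK and Gsk3, then plated on fibronectin in serum medium from which 2i and LIF had been withdrawn. Cells were taken at day 0.5 (120 libraries, 50.8% of all) or day 2.5 (the other libraries) of this differentiation, in which random X inactivation begins. HiRES, which reads chromatin contacts and RNA from the same cell, was run on 1 or 2 cells per library. No undifferentiated group or second line was analysed here, and separate cultures are not named in the labels, so the cells of a day were treated as 1 sample. Cells gave no p-values or standard errors, and a gene was counted as higher or lower where its ratio passed 1.5 in either direction.

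Cohesin is a ring of the SMC1A, SMC3 and RAD21 proteins bound by a STAG subunit. With NIPBL it draws chromatin into loops, WAPL and the PDS5 proteins release or restrain it, and CTCF bound to DNA in the right orientation stops it, which sets the borders of many loops and domains. The same ring holds sister chromatids together from DNA replication until cell division. In stem cells these genes are active in every cycling cell, and the contact maps that HiRES records are shaped by the proteins they encode.

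The expression table held 406 of these cells, 49.5% of them from day 0.5. A cell had 501 to 23213 UMIs (median 13670) at day 0.5 and 529 to 29275 UMIs (median 15796) at day 2.5, and no cell name occurred in more than 1 library. Levels are given in CPM, the UMIs of all cells in a group, added up and scaled to a total of 1000000, so a level is a share of the RNA counted and not an amount per cell. Intervals are 95%, exact Poisson for levels and exact conditional for ratios, and they cover counting error only. The cell metadata place each cell in 1 of 3 batches in a column headed sample, which the sources used here do not explain. Each day had cells of 2 of these values and 1 value held cells of both days, so they were not used as replicates. Batch 1 held 80 day 0.5 cells, batch 3 held 83 day 2.5 cells, and batch 2 held 243 cells, 49.8% of them from day 0.5 and the rest from day 2.5. Summed markers of naive pluripotency were at 994 to 1074 CPM in the 2 batches of day 0.5 and at 45.4 to 58.5 CPM in those of day 2.5, while formative markers were at 835 to 843 and 2008 to 2301 CPM. Markers of fibroblast feeders summed to 3.94 to 7.98 CPM in each batch and day. Those of primitive endoderm summed to 42.7 to 50.6 CPM in the day 0.5 batches and to 196.6 to 207.9 CPM in the day 2.5 batches, where Lamb1 alone was at 160.5 CPM over all cells. The part of these cell state differences in the values below was not tested.

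Sequence around the start site was available for 7 of the 10 genes, from RefSeq promoter windows of GRCm38.p6 that run from 250 bases before to 50 bases after a start site. All 7 windows were rich in CG, with 23 to 55 CG dinucleotides each against a median of 7 over 27025 windows, and all 7 held the GC box GGGCGG on 1 of its strands, against 35.9% of all windows and 83.1% of the 5842 windows with at least 23 CG dinucleotides. In 4 of the 7 a YY1-type motif was found (AANATGGCG, or CGCCATNTT on the other strand), which was present in 2.51% of all windows and in 5.46% of those rich in CG. This motif was chosen after these windows had been read. It began 1 base before the start site in Smc3, 38 bases before it in Pds5b, and farther upstream in Stag1, and at base 10 of the transcript in Ctcf. The Stag1 window belongs to a start site inside the gene, since the Stag1 span used below begins at chr9:100597709. Which start site the Stag1 UMIs came from was not tested. CCAAT, on either strand, was in 4 of the 7 windows (Pds5b, Smc1a, Stag1 and Wapl) against 37.9% of all windows and 32.2% of those rich in CG, and the E-box CACGTG and the ETS motif CCGGAAG were in none of the 7, against 7.24% and 9.12% of all windows and 11.8% and 19.3% of those rich in CG. The 4 windows with the YY1-type motif, set in capitals, are shown because the genes share it. Their levels, given below, were nearly the same on both days for Ctcf and Stag1 and lower at day 2.5 for Smc3 and Pds5b, with none past 1.5-fold.
Ctcf, chr8:105636288-105636587, plus strand: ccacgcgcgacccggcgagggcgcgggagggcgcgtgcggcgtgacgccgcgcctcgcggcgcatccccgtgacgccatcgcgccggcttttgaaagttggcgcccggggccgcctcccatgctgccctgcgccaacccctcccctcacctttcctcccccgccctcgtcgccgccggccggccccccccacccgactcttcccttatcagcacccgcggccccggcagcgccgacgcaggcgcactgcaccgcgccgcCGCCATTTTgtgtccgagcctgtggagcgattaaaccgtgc
Smc3, chr19:53600146-53600445, plus strand: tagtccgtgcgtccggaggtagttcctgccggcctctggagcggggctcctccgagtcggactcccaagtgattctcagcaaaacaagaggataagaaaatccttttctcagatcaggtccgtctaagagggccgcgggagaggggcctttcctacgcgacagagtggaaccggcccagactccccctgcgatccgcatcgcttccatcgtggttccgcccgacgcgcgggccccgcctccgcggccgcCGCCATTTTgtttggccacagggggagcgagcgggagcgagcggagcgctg
Stag1, chr9:100643198-100643497, plus strand: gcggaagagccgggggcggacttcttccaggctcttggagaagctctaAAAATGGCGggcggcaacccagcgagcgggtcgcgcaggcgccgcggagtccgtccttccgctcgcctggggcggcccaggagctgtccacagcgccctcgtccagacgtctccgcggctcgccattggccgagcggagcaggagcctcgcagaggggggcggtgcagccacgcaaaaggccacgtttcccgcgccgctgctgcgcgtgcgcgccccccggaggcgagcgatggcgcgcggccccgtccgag
Pds5b, chr5:150673577-150673876, plus strand: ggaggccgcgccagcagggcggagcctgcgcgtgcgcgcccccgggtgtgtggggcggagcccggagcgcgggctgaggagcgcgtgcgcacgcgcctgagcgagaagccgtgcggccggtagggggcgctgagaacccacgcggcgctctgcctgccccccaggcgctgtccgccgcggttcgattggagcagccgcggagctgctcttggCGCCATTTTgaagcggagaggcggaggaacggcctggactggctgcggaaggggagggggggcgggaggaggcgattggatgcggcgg

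Between the days, the summed level of the 10 genes stayed close to equal, at 4219 CPM at day 0.5 and 4302 CPM at day 2.5 (ratio 1.02, 0.995 to 1.05), but the genes differed among themselves. Rad21, Smc1a, Smc3 and Wapl had lower levels at day 2.5, Stag2 and Nipbl had higher ones, and Ctcf and Stag1 had nearly the same level on both days. Rad21 alone passed 1.5-fold. That is 1 of 10, against 40.4% of the 7716 genes with at least 100 UMIs (19.9% higher and 20.6% lower), and the count was between 0 and 2 in the alternative settings at the same threshold. Their median log2 ratio was -0.08, against -0.04 over those 7716 genes.

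Among the core ring subunits, the level of Rad21, the kleisin that closes the ring, was 199.9 CPM in batch 1 and 200.6 CPM in batch 2 at day 0.5. At day 2.5 it was 128.2 CPM in batch 2 and 136.1 CPM in batch 3. The batches of the 2 days did not overlap, and over all cells the 200.3 CPM of day 0.5 became 131.7 CPM (ratio 0.657, 0.577 to 0.748). This ratio lies next to the threshold of 0.667, and it passed in 4 of 10 alternative settings, between 0.496 and 0.742.

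Smc1a, an X-linked gene for 1 of the SMC arms, was at 174.8 CPM (batch 1) and 219.4 CPM (batch 2) at day 0.5 and at 156.9 CPM (batch 2) and 119.8 CPM (batch 3) at day 2.5. Its ratio was 0.706 (0.621 to 0.802), and 0.715 within batch 2. Smc3, the gene for the other arm, had day 0.5 levels of 264 CPM (batch 1) and 298 CPM (batch 2) and day 2.5 levels of 233.8 CPM (batch 2) and 195.9 CPM (batch 3), a ratio of 0.769 (0.692 to 0.853). For both genes the day 2.5 batches lay below the day 0.5 batches. The ratios of all 3 ring genes were below 1 in each of the 10 alternative settings.

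The STAG subunits, which are exclusive alternatives on the ring, differed from each other. Stag1 was at 930 and 895 CPM in the day 0.5 batches and at 916 and 905 CPM in the day 2.5 batches, with a ratio of 1.00 (0.948 to 1.06). Stag2, which is X-linked, was at 447 and 514 CPM at day 0.5 and at 718 and 626 CPM at day 2.5, and its batches did not overlap between days. Its ratio of 1.40 (1.31 to 1.50) had an upper bound at the threshold. Per Stag1 UMI there were 0.530 Stag2 UMIs at day 0.5 and 0.743 at day 2.5, a change of 1.40 (1.28 to 1.53) that was between 1.37 and 1.44 in batch 2, in either letter of the cell names and in thinned cells. It was not seen in every cell cycle class, as given below. Divided by the length of each gene, the ratio was 1.50 at day 0.5 and 2.10 at day 2.5.

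The loader and the release factor also moved apart in ratio. Nipbl, which loads cohesin and drives loop extrusion, was at 511 and 509 CPM in the day 0.5 batches and at 675 and 665 CPM in the day 2.5 batches. Its ratio was 1.32 (1.23 to 1.41). Wapl, which opens the ring and frees it from DNA, was at 471 and 507 CPM at day 0.5 and at 347 and 351 CPM at day 2.5, a ratio of 0.711 (0.656 to 0.771). Neither gene's batches overlapped between days. Nipbl UMIs per Wapl UMI went from 1.04 to 1.92, a change of 1.85 (1.67 to 2.05), the largest of the 3 pair ratios computed, and it was 1.94 (1.68 to 2.23) within batch 2.

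Pds5a and Pds5b encode the PDS5 proteins, which bind the ring together with WAPL and also protect its acetylation. Pds5a was at 630 and 715 CPM at day 0.5 and at 739 and 798 CPM at day 2.5, and the ratio of 1.13 (1.06 to 1.20) was 1.03 (0.951 to 1.12) within batch 2. Pds5b was at 309 and 295 CPM at day 0.5 and at 263 and 273 CPM at day 2.5, with a ratio of 0.887 (0.805 to 0.978). There were 0.446 Pds5b UMIs per Pds5a UMI at day 0.5 and 0.350 at day 2.5, a change of 0.784 (0.700 to 0.879), and its interval included 1 within batch 2 (0.863, 0.740 to 1.01). Ctcf, the zinc finger protein that blocks the moving ring, was at 162.1 and 167.3 CPM at day 0.5 and at 164.2 and 181.8 CPM at day 2.5, with overlapping batches and a ratio of 1.04 (0.918 to 1.19).

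**Figure D1:**
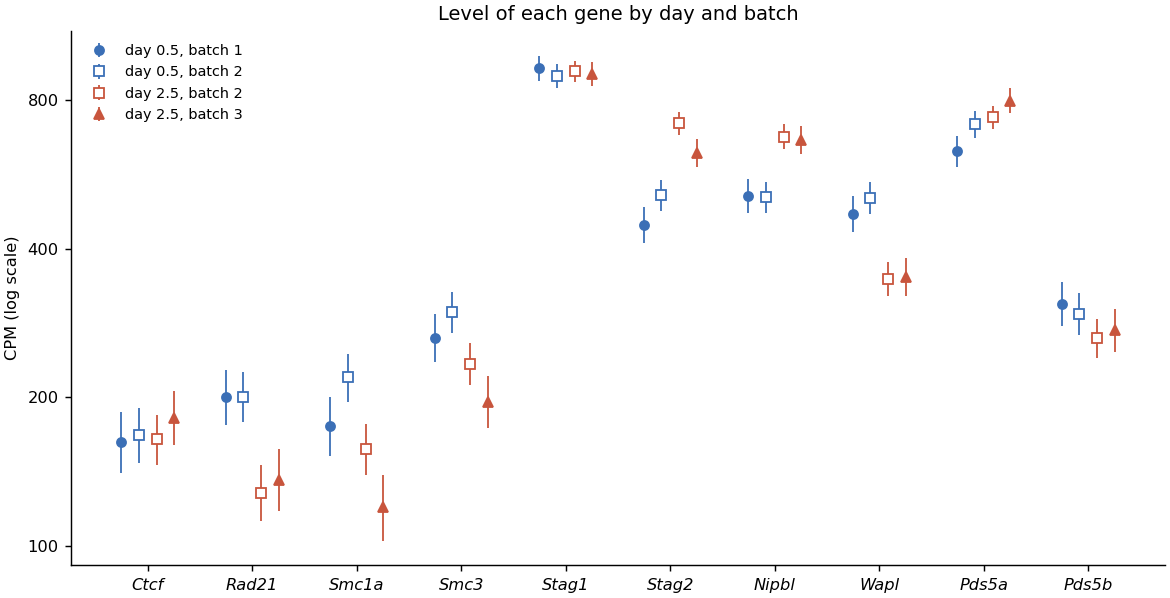
Level of the 10 genes in CPM (log scale) in each batch of each day, with 95% counting intervals. Blue marks are day 0.5 and red marks day 2.5, and open squares are batch 2, which held cells of both days. Rad21 and Wapl at day 2.5 sit below both of their day 0.5 values, Stag2 and Nipbl sit above them, and Ctcf and Stag1 overlap.

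In all, the batches of the 2 days did not overlap for 8 of the 10 genes, all but Ctcf and Stag1. Of the 7716 genes, 73.8% did not overlap, so this count is near the background. In 3 genes (Stag2, Nipbl and Pds5a) day 2.5 was above, against 34.9% of all genes, and in 5 genes (Rad21, Smc1a, Smc3, Wapl and Pds5b) it was below, against 38.8%.

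Compared per kilobase of gene span, since 26.3% of the UMIs of day 0.5 and 24.2% of those of day 2.5 lay on exons, Pds5a had the highest level on both days, at 7.31 CPM per kb at day 0.5 and 8.27 at day 2.5. At day 0.5 it was followed by Wapl (6.49), Rad21 (6.48) and Smc3 (6.22), whose intervals overlapped, then Smc1a (4.37), Stag2 (3.78), Ctcf (3.55), Nipbl (2.90), Stag1 (2.52) and Pds5b (2.20 CPM per kb). Of these later neighbours, the intervals of Stag2 and Ctcf overlapped. At day 2.5 Stag2 stood second at 5.30 CPM per kb, and each neighbour from Stag2 down through Smc3 (4.78), Wapl (4.61), Rad21 (4.26), Nipbl (3.82) and Ctcf (3.71) overlapped the next. Smc1a (3.09), Stag1 (2.53) and Pds5b (1.95 CPM per kb) were last, without overlap. The high CPM of Stag1 thus went with a gene span of 360.8 kb on chromosome 9, while Rad21 spans 30.9 kb on chromosome 15.

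Among 38 partner genes (other loop, cohesin and condensin factors), 33 had at least 100 UMIs, and 5 of them passed 1.5-fold (15.2%, against the 40.4% of all genes). Smc1b and Stag3, which replace SMC1A and the STAG proteins in meiotic cohesin, were lower at day 2.5. Smc1b went from 99.02 to 9.10 CPM (ratio 0.0919, 0.0604 to 0.135), and Stag3 from 35.6 to 6.28 CPM (0.176, 0.103 to 0.288). The third lower gene was Ldb1, an adaptor that joins enhancers to promoters, at 24.1 and 11.3 CPM from 100 UMIs in all. Smchd1, an SMC-like protein needed for stable X inactivation, went from 276 to 583 CPM (ratio 2.11, 1.94 to 2.30). Ncapg, a condensin subunit, went from 64.4 to 102.01 CPM (1.58, 1.31 to 1.92). The other 28 had ratios from 0.668 to 1.48. Of these, Hdac8, the SMC3 deacetylase, was at 1.43 (1.31 to 1.56), Esco2, an SMC3 acetyltransferase, at 1.37 (1.10 to 1.72), and Mau2, the partner of NIPBL, at 0.950 (0.785 to 1.15). Chd8, a CTCF-binding chromatin remodeller, was just inside the threshold, going from 451 to 301 CPM (0.668, 0.613 to 0.727). Too few UMIs were counted for Pttg1, Rec8, Rad21l, Ctcfl and Plk1.

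**Figure D2:**
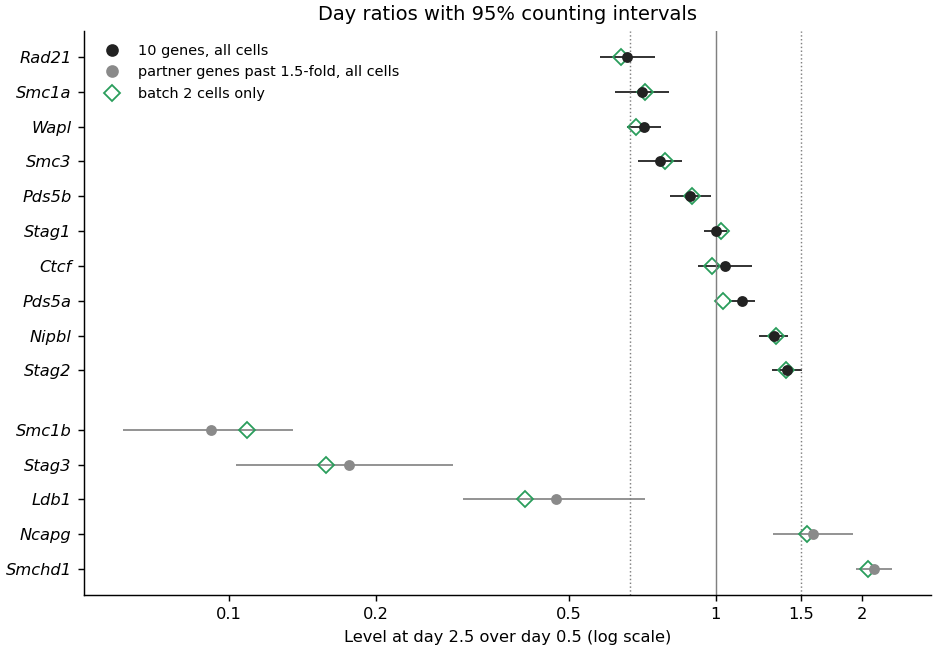
Ratio of the day 2.5 to the day 0.5 level (log scale) for the 10 genes and for the 5 partner genes past 1.5-fold, with 95% counting intervals. Green diamonds give the ratio within batch 2, and dotted lines mark 1.5-fold in each direction. Rad21 lies at 0.657 and Stag2 at 1.40, while Smc1b lies at 0.0919 and Smchd1 at 2.11.

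The X-linked genes Stag2 and Smc1a differed in how they related to the X chromosome of each cell. The authors deposited a second table, of allelic UMIs of X-linked genes, that held all but 83 of the day 2.5 cells. The sources used here do not give the rule that placed a cell in it. Cells inside it had 2490 CPM of Xist, the RNA that coats and silences an X chromosome, and those outside had 83.1 CPM. Both sets had similar depth, with medians of 15652.5 and 16091 UMIs per cell.

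Stag2 was at 545 CPM (512 to 580) inside the allele table and at 864 CPM (815 to 916) outside it, a ratio of 0.631 (0.579 to 0.687). The inside and outside levels were 559 and 941 CPM within batch 2, and 529 and 766 CPM within batch 3. Set against the 483 CPM of day 0.5, the cells outside were 1.79 times as high (1.65 to 1.94) and the cells inside 1.13 times (1.04 to 1.23). The day ratio of Stag2 thus depended on which day 2.5 cells were taken. Without the 7 M phase cells, all of them outside, the inside over outside ratio was 0.628 (0.576 to 0.684), and in G1 cells alone it was 0.700 (0.612 to 0.801).

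Stag2 was 1 of 10 past 1.5-fold in this comparison, against 9.51% of all genes, 44.5% of 301 X-linked genes (lower) and 8.04% of the other genes (either direction). The median ratio of the X-linked genes was 0.684, close to the value of Stag2, and that of the other genes was 1.02. Hdac8, the X-linked partner gene, was at 356 CPM inside and 626 CPM outside, a ratio of 0.568 (0.512 to 0.630). Smc1a, in contrast, was at 134.9 CPM (118.8 to 152.7) inside and 148.3 CPM (128.2 to 170.6) outside. Its ratio of 0.910 (0.752 to 1.10) was above that of 87.4% of the X-linked genes.

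Of the autosomal genes, Stag1 had the lowest ratio, at 836 CPM inside and 1018 CPM outside (0.821, 0.763 to 0.884). Without the 1 inside cell with the most Stag1 UMIs, it was 0.784 (0.727 to 0.844), but it was 0.934 (0.846 to 1.03) within batch 2. The other autosomal genes had ratios from 0.967 (Wapl) to 1.24 (Ctcf, 1.04 to 1.49). The ratio of Stag2 to Stag1 UMIs was 0.652 inside and 0.849 outside, against 0.530 at day 0.5.

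**Figure D3:**
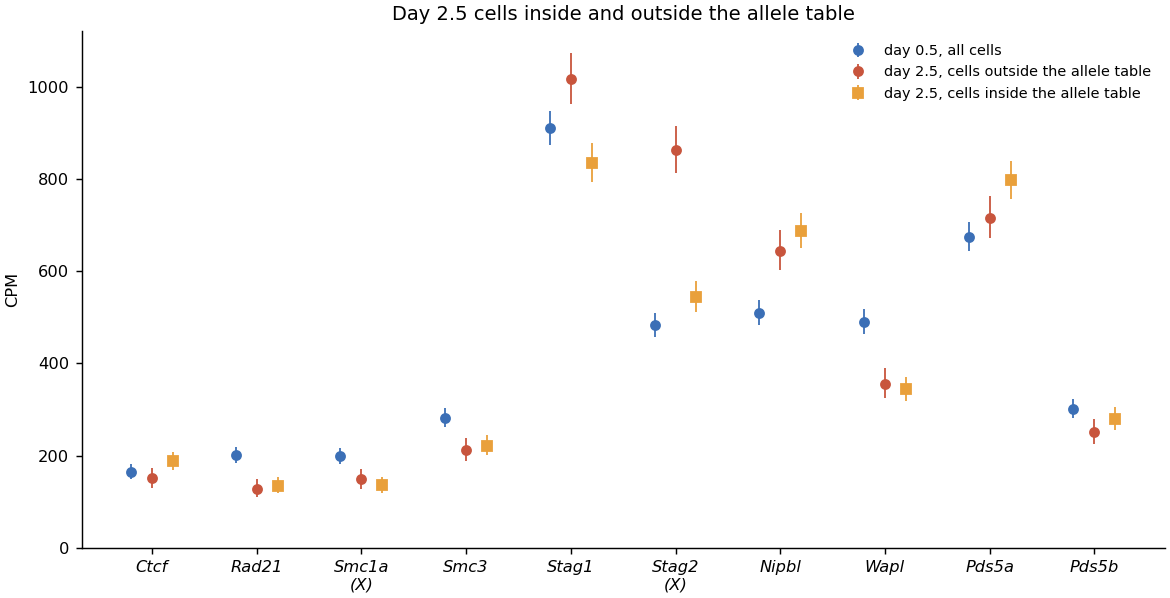
Level of the 10 genes in CPM in day 0.5 cells (blue), day 2.5 cells outside the allele table (red) and day 2.5 cells inside it (orange squares), with 95% counting intervals. X marks the X-linked genes. Stag2 stands at 864 outside against 545 inside, while Smc1a stands at 148.3 and 134.9.

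The allelic UMIs gave the share of B6 RNA, here with Clopper-Pearson intervals. Day 2.5 cells were classed by the allele of their Xist UMIs, 46 with B6 Xist, 18 with CAST Xist, 49 with both and 9 with neither. Xist silences the chromosome that transcribes it. Over all X-linked genes except Xist and Tsix, the B6 share was 22.9% in B6-Xist cells and 77.8% in CAST-Xist cells, a difference of 54.9 points (Newcombe interval 53.5 to 56.2).

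Hdac8 followed this with a wider gap, from 12.3% B6 in B6-Xist cells (13 B6 and 93 CAST UMIs) to 100% in CAST-Xist cells (50 and 0 UMIs). Stag2 had 37.5% B6 in B6-Xist cells (3 and 5 UMIs) and 88.9% in CAST-Xist cells (8 and 1 UMIs). Its difference of 51.4 points (5.91 to 76.9) rests on 17 UMIs, and within batch 2 its interval included 0 (51.4 points, -3.93 to 77.6). Smc1a had 31.6% B6 in B6-Xist cells (12 and 26 UMIs, 17.5% to 48.7%) and 41.7% in CAST-Xist cells (5 and 7 UMIs, 15.2% to 72.3%). The difference for Smc1a was 10.1 points (-17.3 to 39.3), an interval that also included 0 and lay below the values of Hdac8 and of all X-linked genes. At day 0.5 the B6 share was 47.8% for Smc1a (40.1% to 55.6%), 50.9% for Stag2 (37.1% to 64.6%) and 50.2% for all X-linked genes. Over all day 2.5 cells of the allele table it was 38.5% for Smc1a (29.4% to 48.3%), 41.7% for Stag2 (25.5% to 59.2%) and 38.1% for all X-linked genes, so the share of Smc1a was close to that of the X chromosome. Within batch 2 the day 2.5 share minus the day 0.5 share was -17.3 points (-31.2 to -1.995) for Smc1a and -14.4 points (-15.2 to -13.5) for all X-linked genes.

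The cell cycle was examined next, because cohesin levels on chromatin change through it. The authors' classes with at least 10 cells were G1, Early-S, Mid-S, Late-S and M at day 0.5 and G1, Early-S, Mid-S, Late-S and G2 at day 2.5. The S phase scores deposited with the cells did not follow the class names, since M cells had the highest median score on both days (0.412 and 0.442). Nor did the G2 class of day 2.5 lead in G2 and M phase genes, which summed to 1095 CPM there against 1640 CPM in Mid-S and 1681 CPM in Late-S cells, so the contrasts below compare the authors' classes by name. The summed level of the 10 genes was 4533 CPM (4347 to 4724) in G1 cells and 3786 CPM (3577 to 4004) in Late-S cells at day 0.5. At day 2.5 it was 4528 CPM (4405 to 4653) in G1 cells and 3812 CPM (3617 to 4014) in G2 cells. The other classes did not follow one order, since the M cells of day 0.5 were at 4636 CPM (4243 to 5055) and the Early-S cells of day 2.5 at 4701 CPM (4434 to 4979).

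In the 18 G2 cells of day 2.5, 3 of the 10 genes were past 1.5-fold below the 82 G1 cells and none above, against 32.6% of all genes (21.3% lower). Smc1a was at 81.2 CPM in G2 and 155.5 CPM in G1 (ratio 0.522, 0.343 to 0.770), Smc3 at 123.7 and 235.03 CPM (0.527, 0.377 to 0.721) and Pds5b at 212.9 and 332 CPM (0.641, 0.497 to 0.818). Both SMC arms were thus at about the same fraction of their G1 level, from 30.5 (Smc1a) and 46.5 (Smc3) UMIs in G2 cells. In the Early-S cells of day 2.5 Smc3 was at 129.3 CPM (88.5 to 182.6), below its G1 level of 235.03 CPM. Smc1a was at 165.7 CPM (118.9 to 224.8) there, an interval that included its G1 level of 155.5 CPM. In the 20 Late-S cells of day 0.5, 0 of the 10 passed against the 41 G1 cells, while 35.9% of all genes did. The lowest ratios there were Smc3 at 0.686 (0.513 to 0.909), Rad21 at 0.689 (0.472 to 0.993) and Nipbl at 0.697 (0.565 to 0.857).

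Ctcf ran the other way at day 2.5. It was at 120.4 CPM (101.06 to 142.3) in G1, 245 CPM (186.8 to 314) in Early-S, 200.05 CPM (174.2 to 228.7) in Mid-S, 175.6 CPM (128.05 to 234.9) in Late-S and 179.6 CPM (139.4 to 227.9) in G2. Mid-S over G1, a contrast chosen after the values were seen, was 1.66 (1.34 to 2.07), and Ctcf was 1 of 10 past 1.5-fold, against 27.6% of all genes (10.9% higher). At day 0.5 the same ratio for Ctcf was 1.18 (0.895 to 1.58), and 0 of 10 passed, against 28.5%. Whether the 2 days differ in this was not tested.

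The 15 M cells of day 0.5 stood apart, with a median of 5818 UMIs against 11905 in G1 cells. Smc3 was at 592 CPM in M and 329 CPM in G1 (ratio 1.80, 1.33 to 2.41), and Wapl was at 877 and 561 CPM (1.56, 1.23 to 1.98). These were 2 of 10 past 1.5-fold, against 62.4% of all genes (30.3% higher), in a contrast also chosen after the values were seen. Stag2 was at 778 CPM in M, and Stag1 at 570 CPM, so that there were 1.37 Stag2 UMIs per Stag1 UMI in M cells against 0.432 to 0.675 in the other day 0.5 classes. A single M cell held 16 of the 65.5 Smc3 UMIs and 22 of the 97 Wapl UMIs, and without it the M levels were 525 and 795 CPM.

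Stag1 was highest in Early-S cells on both days, at 1009 CPM (915 to 1110) and 1348 CPM (1207 to 1501). The second value includes 1 cell with 82.5 Stag1 UMIs among 13178, and without that cell it was 1072 CPM. Nipbl and Pds5a had their highest level in G1 on both days, Nipbl at 601 and 734 CPM and Pds5a at 757 and 884 CPM. Stag2 was lowest in Mid-S cells on both days, at 429 and 572 CPM. Apart from Stag1 at day 2.5, the interval of each of these extremes overlapped that of another class of its day. That exception includes the cell with 82.5 Stag1 UMIs, and no interval was computed without it. Pds5a in Early-S cells, for example, was at 733 CPM (653 to 820) at day 0.5 and 845 CPM (734 to 967) at day 2.5.

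The direction of most differences between days was also seen within single classes. In the 4 classes with at least 10 cells on both days (G1, Early-S, Mid-S and Late-S), Stag2 had ratios from 1.31 to 1.43, Nipbl from 1.09 to 1.52 and Pds5a from 1.06 to 1.24, each above 1 in 4 of 4. Smc1a (0.655 to 0.841) and Wapl (0.602 to 0.950) were below 1 in 4 of 4. Among these genes, only Stag2 had intervals that left out 1 in every class. In Early-S cells the intervals of Nipbl (0.878 to 1.36), Wapl (0.730 to 1.23), Pds5a and Smc1a included 1. So did those of Pds5a in Mid-S cells and of Smc1a in Late-S cells. Rad21 was below 1 in 3 of 4, with ratios from 0.600 to 1.18, the last in Late-S cells, and Smc3 likewise in 3 of 4, from 0.427 to 1.18. Ctcf (0.866 to 1.33), Stag1 (0.925 to 1.34) and Pds5b (0.729 to 1.07) also had ratios on both sides of 1. Stag1 was at 1.34 (1.15 to 1.55) in Early-S and 0.925 (0.850 to 1.01) in Mid-S cells. The Nipbl to Wapl ratio lay between 0.541 (M) and 1.28 (Early-S) in the classes of day 0.5. In those of day 2.5 it lay between 1.48 (Early-S) and 2.18 (G1). As point values these ranges did not overlap, but M cells entered only at day 0.5 and G2 cells only at day 2.5. The values nearest each other, 1.28 and 1.48, both came from Early-S cells. The Stag2 to Stag1 ratio went from 0.675 to 0.923 in G1, from 0.432 to 0.623 in Mid-S and from 0.666 to 0.771 in Late-S cells. In Early-S cells it did not rise, at 0.473 and 0.465, and those of day 2.5 include the cell with 82.5 Stag1 UMIs. No interval was computed for either ratio within a class, so whether they differed between days in each class was not tested.

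**Figure D4:**
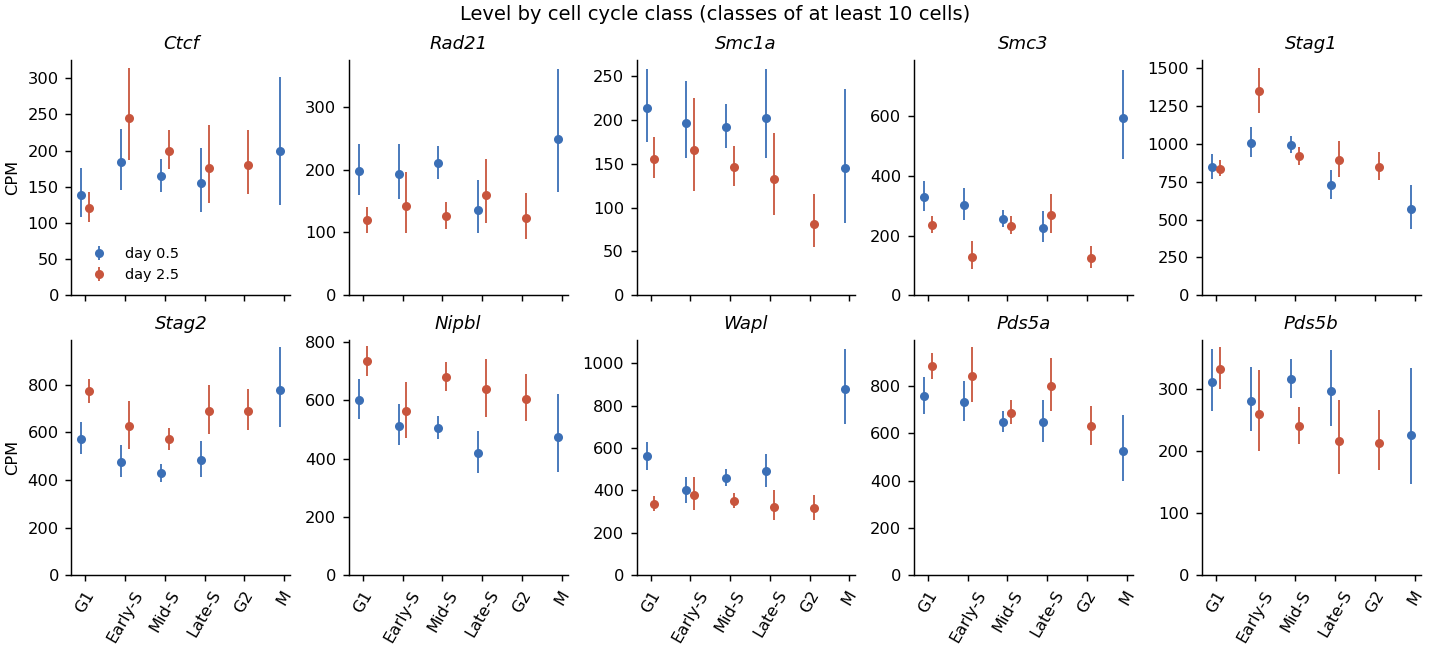
Level of each gene in CPM by cell cycle class at day 0.5 (blue) and day 2.5 (red), for classes of at least 10 cells, with 95% counting intervals. Smc3 and Wapl are highest in the M cells of day 0.5 (592 and 877), and Smc1a and Smc3 are lowest in the G2 cells of day 2.5 (81.2 and 123.7).

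For each gene, the gene with the most similar profile over these 10 day and class groups was found by the correlation of log2(CPM + 5) among 2924 genes with at least 500 UMIs. The groups share cells of 2 days and differ in depth, so these values only describe. Nipbl was closest to Usp15 (r = 0.979), Smc3 to Ccnt1 (0.970), Wapl to Sumo2 (0.969), Stag2 to Gclc (0.961) and Rad21 to Ap2b1 (0.955). Pds5a was closest to D630045J12Rik (0.943), Smc1a to Cnot1 (0.917), Pds5b to Rps6ka3 (0.911), Stag1 to Usp34 (0.902) and Ctcf to Mdm4 (0.902). None of the 10 was closest to another of the 10, which says little, since the 10 are few among 2924 genes. For each gene, the nearest other of the 10 ranked between 44 (Smc1a for Pds5b) and 504 (Pds5a for Nipbl) among those genes. The nearest pair of the 10 was Rad21 and Wapl (0.775), and Smc3 and Stag1 were the farthest apart (-0.66).

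The last comparison used the chromatin contacts of the same cells, as the share of a cell's contacts that join different chromosomes (interPairsRatio in the metadata). This share had a median of 7.55% at day 0.5 (1.69% to 19.7%) and 8.96% at day 2.5 (1.31% to 16.6%). Cells of each day were ordered by it and split into 3 groups of equal size, low, middle and high. Cycle class and share moved together: all 15 M cells of day 0.5 and all 7 of day 2.5 were in the low group, as were 26 of 41 and 44 of 82 G1 cells, while 42 of 87 and 37 of 62 Mid-S cells were in the high group.

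None of the 10 genes passed 1.5-fold between the high and the low group, 0 of 10 on each day, against 20.4% of all genes at day 0.5 and 21.2% at day 2.5. At day 0.5 Wapl was at 558 CPM in the low, 507 CPM in the middle and 406 CPM in the high group (ratio 0.727, 0.631 to 0.838), and Smc3 was at 325, 282 and 241 CPM (0.739, 0.614 to 0.889). Both levels went down step by step with more contacts between chromosomes. When the groups were made within each cycle class, the ratio was 0.911 (0.795 to 1.04) for Wapl and 0.880 (0.733 to 1.06) for Smc3, and both intervals included 1. Without M cells it was 0.820 (0.707 to 0.950) for Wapl and 0.812 (0.669 to 0.984) for Smc3, and in Mid-S cells alone 0.790 (0.639 to 0.974) and 0.897 (0.667 to 1.20).

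At day 2.5 Rad21 had the lowest ratio, with 163.9 CPM in the low, 124.3 CPM in the middle and 110.5 CPM in the high group (0.674, 0.529 to 0.857). With groups made within each cycle class it was 0.678 (0.528 to 0.868), in G1 cells alone 0.410 (0.247 to 0.664), and without M cells 0.782 (0.609 to 1.00). Smc3 had a ratio of 0.918 (0.764 to 1.10) at day 2.5 but of 0.565 (0.406 to 0.782) in G1 cells alone. Smc3 and Rad21 were past 1.5-fold in that split, for which no share of all genes is given. Stag1 had the highest ratio, at 767, 1003 and 949 CPM (1.24, 1.13 to 1.36), which was 1.45 (1.24 to 1.71) in G1 cells and 1.08 (0.982 to 1.18) with groups made within each cycle class. Stag2 was at 742 CPM in the low and 647 CPM in the high group (0.873, 0.787 to 0.969), but with groups made within each class its ratio was 1.16 (1.04 to 1.30). At day 2.5 the ratio of Stag2 thus changed side with the cycle classes, and that of Rad21 did not. In cells thinned to 5000 UMIs the Rad21 ratio was 0.746 (0.493 to 1.12). At day 0.5 Rad21 had a ratio of 0.828 (0.666 to 1.03), which was 0.830 (0.659 to 1.04) with groups made within each class. It was 1.12 (0.810 to 1.55) in Mid-S cells alone.

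Cell by cell, Spearman's rho between CPM and the share of contacts ran from -0.16 (Smc3) to 0.18 (Stag1) over the cells of day 0.5, and from -0.18 (Rad21) to 0.21 (Stag1) over those of day 2.5. After every cell was thinned to 5000 UMIs, the range was -0.20 to 0.18 and -0.23 to 0.22. With a median of 2 to 12.5 UMIs per cell and gene, and with depth and class shared by all genes of a cell, these values only describe.

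**Figure D5:**
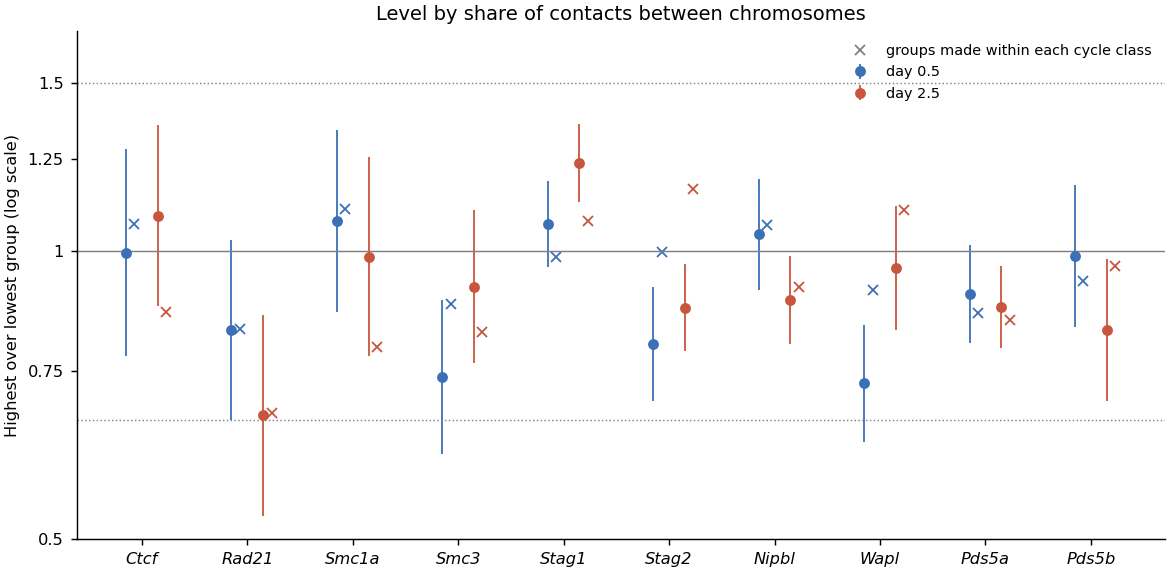
Ratio of each gene's level in the high over the low group of cells by share of contacts between chromosomes (log scale), at day 0.5 (blue) and day 2.5 (red), with 95% counting intervals. Crosses give the ratio when groups were made within each cycle class, and dotted lines mark 1.5-fold. Rad21 at day 2.5 lies at 0.674, with its cross at 0.678, while Wapl at day 0.5 lies at 0.727 with its cross at 0.911.

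In cells thinned to 5000 UMIs (7 shallower cells of each day were left out), the variance over the mean of the 10 genes spanned 1.07 to 1.81 for day 0.5 and 1.15 to 2.28 for day 2.5. Genes with means in the same range (1478 and 1934 genes) had medians of 1.43 and 1.43, and 90th percentiles of 2.15 and 2.25. Stag2 was highest at day 0.5 (1.81) and Stag1 at day 2.5 (2.28). The day 2.5 value of Stag1 includes a cell with 25 Stag1 UMIs after thinning, against a median of 4. Stag1 also had the highest mean of the 10 genes on both days (4.47 and 4.64 UMIs). The 45 pairs of the 10 genes had Spearman's rho from -0.16 to 0.29 at day 0.5 and from -0.21 (Nipbl and Wapl) to 0.18 at day 2.5, with medians of 0.01 and -0.01.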

How the data were processed

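The authors deposited expected counts of UMIs per gene and cell, and the same split by allele for X-linked genes, per the file headers and values; 11.1% of the expression values above 0 were fractions, and 21.6% for Stag1. The deposited cell tables hold counts of contacts and UMIs, the fraction of contacts between chromosomes, phase scores and the authors' cycle classes. The submitters' processing notes name the build GRCm38; the sources used here give no aligner, counting tool or use of strand. Overlapping gene models held at most 146 UMIs (Ctcf, of 986) where the table lists them. Cells were taken from the sample titles, which left 1101 columns of the expression and 893 of the allele table unused. Of 471 named cells, 406 had expression and 308 allelic values.

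UMIs were summed per group and scaled to CPM (Python 3.11.15, numpy 2.4.6, scipy 1.17.1). Genes with at least 100 UMIs were compared at 1.5-fold. Cycle classes were compared as the largest late class against G1. Thinning drew UMIs without replacement, after fractions were rounded at random. Intervals are 95%. Procedures were checked on simulated counts. All 10 genes, the partner genes past 1.5-fold and the most similar gene of each were named. The 10 genes and the lists were chosen with earlier results of these data known.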

Additional observations from a re-analysis of the deposited data

How the results depend on the processing

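No paired analysis was possible because the labels give no replicate numbers, and no replicate could be left out with 1 sample a day. Between days, Rad21 was the 1 gene of 10 past the threshold; the count was 0 with median-ratio scaling, with the mean over cells, in letter A cells, in cells of the allele table and with equal weight per cycle class, 2 in G1 cells, 6 at 1.25-fold and 0 at 2-fold. The 5 partner genes became 8 with equal weight per class, 12 in G1 cells and 8 with no minimum of UMIs. Between the contact groups, 1 gene (Wapl, 0.659) passed in batch 2 at day 0.5 and 2 (Rad21 and Smc3) passed in G1 cells at day 2.5, against 0. No share of all genes is given for these alternative settings, so their counts cannot be set against a background. The Pds5b to Pds5a change was 0.911 in letter B cells and 0.695 in thinned cells, against 0.784. The cause of these shifts was not tested, other than that a lower or higher threshold admits more or fewer genes. Of 240 values of single genes under an alternative, all but 49 stayed within the counting interval or the spread. None of the called values changed direction, but between days only Rad21 was called and between contact groups no gene was. Values that were not called did cross 1. The day ratio kept its side of 1 in 5 of 10 alternatives for Stag1, 8 for Ctcf and 9 for Pds5b, and in all 10 for the other genes. Settings without M cells, the contrasts of M and Mid-S with G1, and the split of day 2.5 cells by the allele table were chosen after seeing the data. Low counts limit the allelic values of Stag2 and Smc1a, and no value here carries the spread between cultures.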
